A study of Homo sapiens with 8 samples.

Results

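The genes described here encode the classical axon guidance ligands and receptors. They were chosen by symbol, as every gene named as an ephrin (EFNA, EFNB) or EPH receptor (EPHA, EPHB), a semaphorin of classes 3 to 7 (SEMA), a plexin (PLXN), a neuropilin (NRP), a SLIT, a ROBO, a netrin (NTN) or a netrin receptor (UNC5, DCC). Of the 25603 genes in the expression table, 57 met this rule, comprising 31 ligands and 26 receptors. Another 12 symbols of these families (DCC, EFNA5, EPHA3, EPHA4, EPHA6, EPHA7, ROBO2, SEMA3D, SEMA3E, SEMA6D, UNC5C and UNC5D) were not found in the expression table, so they could not be analysed.

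These families were named for steering growing axons, but the same proteins act between many kinds of cell. A secreted or membrane-bound ligand (SLIT, netrin, semaphorin or ephrin) binds a receptor on a neighbouring cell (ROBO, UNC5 or DCC, plexin with or without a neuropilin, or EPH), and the receptor remodels the actin cytoskeleton through small GTPases, so that the cell is repelled, attracted or separated from its neighbour. In epithelia, including that of the liver, they are known for cell sorting, junctions, migration and contact with blood vessels. Ephrins and several semaphorins can also signal back into the cell that carries them.

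The data came from HepG2 cells, an established human hepatocarcinoma line, grown in medium with serum, insulin and dexamethasone. One group received UNC1999 together with valemetostat tosylate (spelled Valmetostat Tosylate in the labels), each at 1 µM, for 4 days (EZHi), and the other received the solvent DMSO, at 0.2% per the labels, for the same time (vehicle). Both compounds inhibit EZH1 and EZH2, the histone methyltransferases of polycomb complex PRC2, whose mark on lysine 27 of histone H3 goes with silenced genes, and since they were given together their separate effects cannot be told apart. Each group had 4 libraries from independent replicates of this 1 line, 8 in all. The comparison asks which guidance genes change in expression when these enzymes are blocked.

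Levels are stated as the deposited length-corrected log2 values, on which 1 unit is a doubling and genes can be compared per length, and also as an estimated FPKM (fragments per kilobase of transcript, scaled to library size) on a linear scale. These values were normalised for depth, and the read depth of each library is unknown. Of the 57 guidance genes, 48 passed a filter of a mean estimated FPKM of at least 0.1 and were tested with limma, a linear model over all 20153 genes that passed, with Benjamini-Hochberg adjustment over all of them. A gene is described as called, and as risen or fallen, where the adjusted p was under 0.05. Replicate numbers marked libraries that deviated together, so the result of a second fit with the replicate number as a block is given where it changed a call. These are whole cultures, in which more cells expressing a gene and more RNA per cell cannot be told apart.

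EZHi raised 17 of the 48 guidance genes tested (35.4%), whereas 8.85% of all genes tested were called higher. It lowered 2 (4.17%), against 4.27% of all genes tested. The genes that rose were SLIT1, EPHB3, EPHB2, UNC5B, SEMA3A, SEMA4D, NTN3, SEMA6A, SLIT2, EFNB3, EPHA10, ROBO3, SEMA4A, NTN1, PLXNB3, EFNB1 and SEMA4F, in order of the size of their change, and those that fell were EPHA2 and SEMA4B. Of the 17, 9 rose by at least 1 on the log2 scale, a change reached by 3.21% of all genes tested. The values of both groups did not overlap for 16 genes that were higher in EZHi (10.7% of all genes tested) and for 3 that were lower (7.93% of all genes tested). The median log2 change over the 48 genes was 0.20, compared with -0.0077 over all genes tested, and 32 of the 48 changes were positive (48.0% of all genes tested).

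With the replicate block, 24 guidance genes were called higher and 6 lower, against 14.9% and 15.1% of all genes tested. All 19 calls were kept. The genes added were NRP1, NRP2, SEMA6C, SEMA3C, SEMA3F, EPHB1 and PLXND1 among the higher ones and EFNA1, EFNA2, NTN4 and PLXNA2 among the lower ones. Ligands and receptors both contributed, with 11 of 26 ligands and 6 of 22 receptors called higher and 1 of each called lower.

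**Figure D1:**
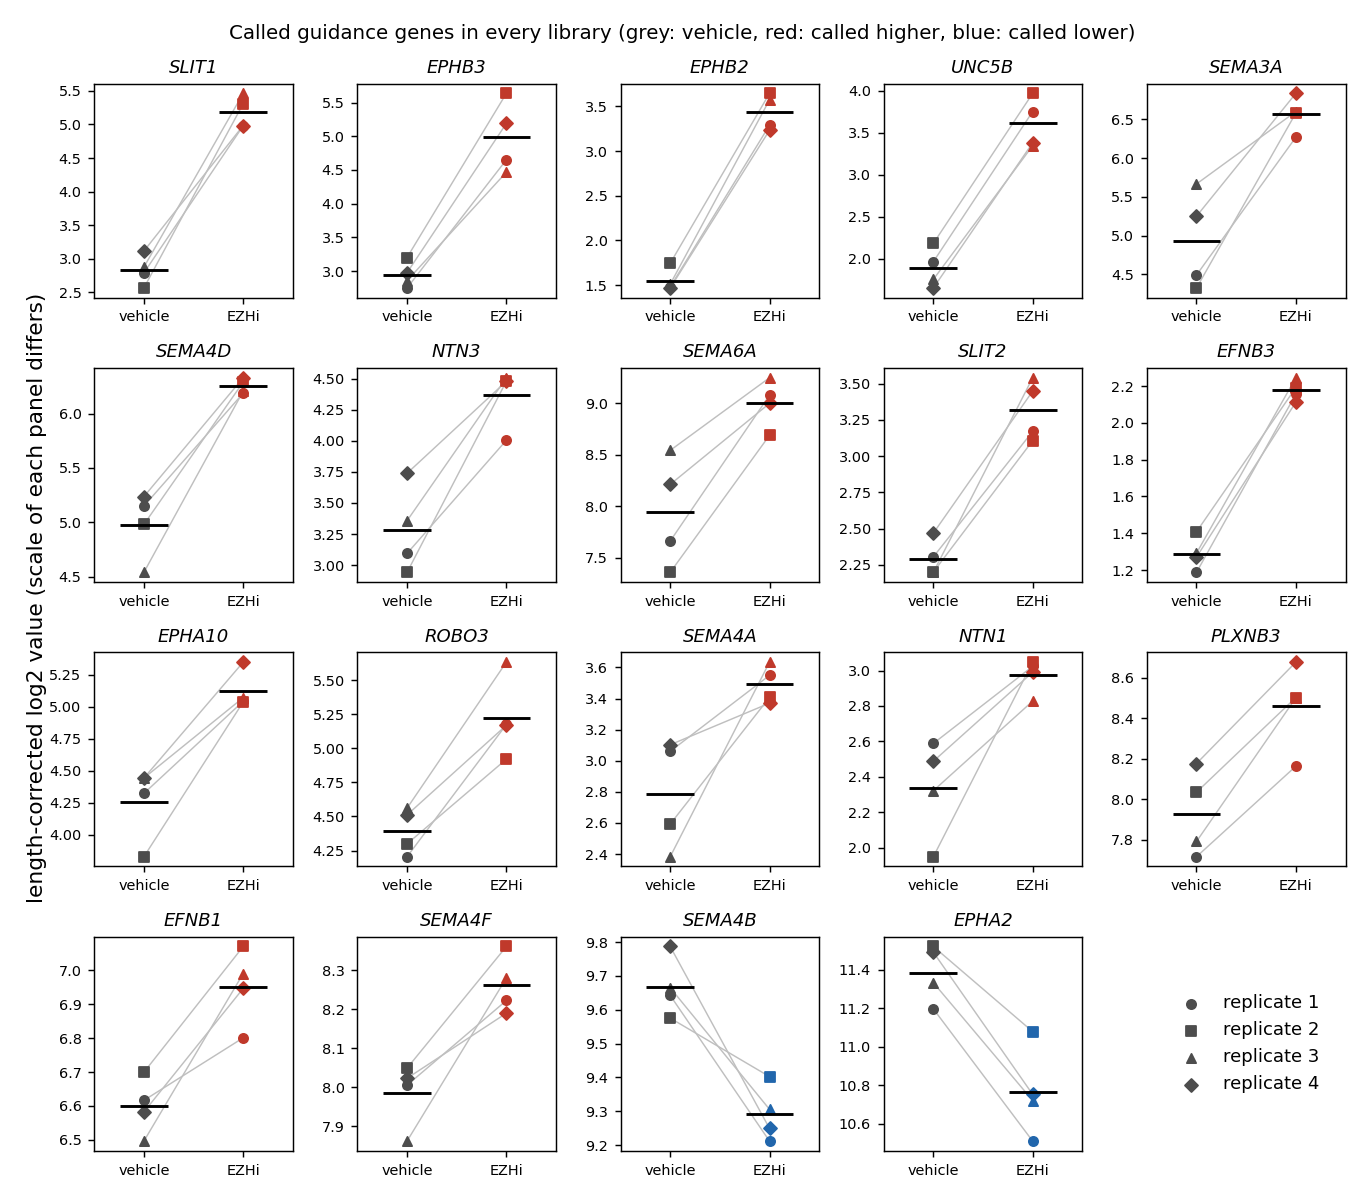
Length-corrected log2 value of the 17 guidance genes called higher (red) and the 2 called lower (blue) in every library, with vehicle in grey, the group mean as a bar and grey lines joining libraries of the same replicate number. Every line rises for the 17 genes and falls for EPHA2 and SEMA4B, and among these 19 genes the groups overlap for PLXNB3.

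SLIT proteins are large secreted ligands that repel axons and migrating cells through ROBO receptors. Both SLIT genes tested rose. SLIT1, on chromosome 10 of hg38 (chr10:96998038-97185959, minus strand), was listed in the vehicle libraries at 2.79, 2.56, 2.88 and 3.11 and in the EZHi libraries at 4.98, 5.31, 5.46 and 4.98. The groups were far apart, with each EZHi value more than 1 unit above the highest vehicle value. The log2 fold change of SLIT1 was 2.35 ± 0.15 (SE; limma adjusted p = 1.26e-05), the largest among the 48 guidance genes, and took its estimated FPKM from 0.282 ± 0.0445 to 1.44 ± 0.242 (SD, n = 4). SLIT2 (chr4:20251905-20620561) was lower in level, at 2.30, 2.20, 2.20 and 2.47 in vehicle and 3.17, 3.11, 3.54 and 3.45 in EZHi. It rose by 1.02 ± 0.12 (limma adjusted p = 0.000357) with no overlap between groups. SLIT3 did not pass the filter and was listed at 0.09 in vehicle and 0.10 in EZHi.

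SLIT1 shares exons with the readthrough gene ARHGAP19-SLIT1 on the same strand. The paper states that HTSeq counted reads in union mode, in which a read over exons of several genes is ambiguous and counted for none. Because the reads were counted without strand, the same holds for genes that overlap on opposite strands. The readthrough gene itself was listed at -1.36 in vehicle and -1.20 in EZHi, far below SLIT1 and under the filter. Its low value leaves out reads of the shared exons, as does that of SLIT1, where the authors' annotation held both genes. The neighbouring ARHGAP19 had a log2 change of -0.0044 and was not called.

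To show what lies at the start of this gene, the RefSeq window from 250 bases before to 50 bases after the start of SLIT1 is printed below, 5′ to 3′ on the gene's strand (chr10:97185910-97186209, GRCh38.p14). Capitals mark matches to GGGCGG or its reverse complement CCGCCC, the GC box bound by SP1-type factors.
SLIT1: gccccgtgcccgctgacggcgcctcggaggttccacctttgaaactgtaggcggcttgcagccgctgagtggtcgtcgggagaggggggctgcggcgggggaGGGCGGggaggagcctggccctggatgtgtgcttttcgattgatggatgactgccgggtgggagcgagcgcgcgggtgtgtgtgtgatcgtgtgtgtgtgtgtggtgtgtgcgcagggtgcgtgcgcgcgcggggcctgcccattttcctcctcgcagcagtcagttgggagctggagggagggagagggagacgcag
The window had 27 CpG dinucleotides, a ratio of observed to predicted CpG of 0.876, and 1 GC box.

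Among the ROBO receptors, expression was carried by ROBO1, the main SLIT receptor of many epithelia, which made up 98.3% of the summed estimated FPKM of the 3 ROBO genes in vehicle. ROBO1 was at 90.5 ± 12.2 FPKM in vehicle and 94.5 ± 16.0 in EZHi, a log2 change of 0.06 (95% interval -0.23 to 0.34) that was not called. ROBO3, a receptor that controls midline crossing of commissural axons, was listed at 4.20, 4.30, 4.56 and 4.51 in vehicle and 5.17, 4.92, 5.63 and 5.17 in EZHi. Every EZHi library lay above every vehicle library for ROBO3, which rose by 0.83 ± 0.16 (limma adjusted p = 0.00739). ROBO4, a receptor of endothelial cells, had a change of -0.07 and was not called. Thus the SLIT ligands, at a summed FPKM of 0.515 ± 0.0599 in vehicle and 1.87 ± 0.266 in EZHi, remained far below their receptor ROBO1 in both groups.

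Netrins are laminin-related ligands that attract through DCC and repel through UNC5 receptors. The receptor UNC5B (chr10:71212570-71302864), known from blood vessels and as a receptor that triggers cell death without its ligand, was listed at 1.96, 2.18, 1.75 and 1.65 in vehicle and 3.75, 3.97, 3.35 and 3.38 in EZHi. The groups were separated by more than 1 unit. UNC5B rose by 1.72 ± 0.16 (limma adjusted p = 0.000115), from 0.146 ± 0.0243 to 0.486 ± 0.103 FPKM. UNC5A did not pass the filter, at 0.79 in vehicle and 1.29 in EZHi.

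Among the ligands of this system, NTN3 (chr16:2471297-2474145) was listed at 3.09, 2.94, 3.36 and 3.74 in vehicle and at 4.00, 4.48, 4.51 and 4.48 in EZHi. The groups did not overlap, with EZHi replicate 1 closest to vehicle. NTN3 rose by 1.08 ± 0.19 (limma adjusted p = 0.00399). NTN1, the founding netrin that guides commissural axons, rose by 0.64 ± 0.13 (limma adjusted p = 0.0119), from a mean of 2.34 ± 0.28 to 2.97 ± 0.10 (SD, n = 4). NTN4, a netrin of basement membranes, supplied 94.7% of the summed netrin FPKM in vehicle. Its log2 change was -0.39 (limma adjusted p = 0.137), and it was called lower with the replicate block (limma adjusted p = 0.00914), each EZHi library being below the vehicle library of the same number. NTN5 was under the filter.

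EPH receptors are receptor tyrosine kinases that bind ephrins on touching cells and keep cell populations apart. Those of class B bind mainly the transmembrane ephrin-B ligands, and EPHB2 and EPHB3 are known for positioning cells along the intestinal crypt. EPHB3 (chr3:184561785-184582408) was listed at 2.75, 3.20, 2.86 and 2.98 in vehicle and 4.65, 5.64, 4.47 and 5.19 in EZHi. EPHB2 (chr1:22710839-22921500) was at 1.48, 1.74, 1.51 and 1.47 in vehicle and 3.29, 3.65, 3.57 and 3.23 in EZHi. For both receptors all EZHi values lay more than 1 unit above all vehicle values, and replicate 2 was the highest library of its group. EPHB3 rose by 2.04 ± 0.24 (limma adjusted p = 0.000390) and EPHB2 by 1.88 ± 0.11 (limma adjusted p = 8.08e-06). In estimated FPKM this was 0.303 ± 0.0417 to 1.30 ± 0.489 for EPHB3 and 0.115 ± 0.0108 to 0.426 ± 0.0602 for EPHB2.

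Even so, the class B receptors of these cells were mostly EPHB4, a receptor known from veins and epithelia, which held 99.1% of their summed FPKM in vehicle. EPHB4 was at 63.8 ± 2.34 FPKM in vehicle and 60.5 ± 4.55 in EZHi, a log2 change of -0.08 (95% interval -0.23 to 0.07) that was not called. EPHB1 had a change of 0.24 and was called with the replicate block (limma adjusted p = 0.126 without it and 0.0387 with it), as well as with libraries centred on genes at 10 FPKM and over (0.0464). EPHB6, which lacks kinase activity, was under the filter.

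The class A receptors moved in opposite directions. EPHA2 (chr1:16124337-16156069, minus strand), the main EPH receptor of many epithelia, was listed at 11.20, 11.52, 11.33 and 11.49 in vehicle and 10.51, 11.08, 10.72 and 10.75 in EZHi. All EZHi libraries were below all vehicle libraries. EPHA2 fell by 0.62 on the log2 scale (SE 0.12; limma adjusted p = 0.00783), from 105 ± 10.7 to 68.6 ± 11.5 FPKM, and since it made up 87.6% of the class A sum in vehicle, that sum went from 120 ± 9.28 to 84.5 ± 10.9 FPKM. EPHA10, a receptor without kinase activity, was at 4.32, 3.83, 4.44 and 4.44 in vehicle and at 5.04, 5.04, 5.07 and 5.35 in EZHi. It rose by 0.87 ± 0.16 (limma adjusted p = 0.00504) with no overlap between groups. EPHA1, at 14.1 FPKM in vehicle, had a change of 0.04 and was not called. EPHA5 and EPHA8 were under the filter.

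The start windows of 4 EPH receptors are shown side by side, again 5′ to 3′ with GC boxes in capitals. EPHB3, EPHB2 and EPHA2 were taken for the size of their change, and EPHB4 was picked by hand for comparison. EPHB3 (chr3:184561535-184561834) and EPHB2 (chr1:22710588-22710887) rose from low levels, EPHB4 (chr7:100827474-100827773) was high and not called, and EPHA2 (chr1:16156020-16156319) was high and fell (RefSeq, GRCh38.p14).
EPHB3: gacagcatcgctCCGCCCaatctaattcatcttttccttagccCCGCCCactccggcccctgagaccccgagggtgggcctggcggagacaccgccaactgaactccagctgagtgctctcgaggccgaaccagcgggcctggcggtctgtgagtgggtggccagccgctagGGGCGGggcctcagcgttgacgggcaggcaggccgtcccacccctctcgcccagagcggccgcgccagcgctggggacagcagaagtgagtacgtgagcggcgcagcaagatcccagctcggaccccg
EPHB2: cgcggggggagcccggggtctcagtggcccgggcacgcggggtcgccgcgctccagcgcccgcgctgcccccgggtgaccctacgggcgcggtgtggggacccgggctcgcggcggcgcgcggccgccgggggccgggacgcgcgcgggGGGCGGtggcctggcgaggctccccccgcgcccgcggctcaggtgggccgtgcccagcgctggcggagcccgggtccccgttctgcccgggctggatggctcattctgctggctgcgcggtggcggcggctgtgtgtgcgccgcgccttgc
EPHB4: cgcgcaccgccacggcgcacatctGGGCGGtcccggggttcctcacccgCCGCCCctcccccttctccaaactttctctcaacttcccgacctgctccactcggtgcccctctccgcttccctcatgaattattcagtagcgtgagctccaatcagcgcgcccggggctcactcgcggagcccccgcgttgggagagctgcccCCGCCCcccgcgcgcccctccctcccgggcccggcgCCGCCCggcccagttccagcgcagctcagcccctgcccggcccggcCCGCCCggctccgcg
EPHA2: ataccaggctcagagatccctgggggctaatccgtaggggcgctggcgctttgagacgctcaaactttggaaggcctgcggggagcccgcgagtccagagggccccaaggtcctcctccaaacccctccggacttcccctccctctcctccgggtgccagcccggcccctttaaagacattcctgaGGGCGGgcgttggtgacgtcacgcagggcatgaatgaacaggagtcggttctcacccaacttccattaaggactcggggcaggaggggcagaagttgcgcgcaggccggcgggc
The windows held 3 GC boxes for EPHB3, 1 for EPHB2, 5 for EPHB4 and 1 for EPHA2. Their CpG counts were 26, 49, 36 and 20 in the same order. Over all guidance genes with a window, the median CpG count was 19.5 for the 10 called higher, 28.5 for the 2 called lower and 25 for the 27 tested and not called. It was 25 over all genes tested, 22 over all genes called higher and 19 over protein-coding genes tested under 1 FPKM.

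Among the ephrins, the ligands of these receptors, EFNB1 and EFNB3 were tested and both were called higher. EFNB3 was listed at 1.19, 1.41, 1.29 and 1.27 in vehicle and 2.16, 2.19, 2.25 and 2.11 in EZHi, a separation of more than 0.5 with little spread within each group. It rose by 0.89 ± 0.07 (limma adjusted p = 2.48e-05) and remained very low, at 0.0956 FPKM in vehicle and 0.177 in EZHi. Its mean over all libraries passed the filter through the EZHi libraries alone, so that it could be tested only because it was higher there, and without it 16 of 47 guidance genes were called higher. EFNB1, which held 95.9% of the ephrin-B sum in vehicle, rose by 0.35 ± 0.09 (limma adjusted p = 0.0309), from 3.79 ± 0.22 to 4.85 ± 0.373 FPKM. EFNB2, a marker of arteries that pairs with EPHB4, was under the filter.

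The 4 ephrin-A genes did not pass the test without the block, and 1 of them, EFNA2, had an unadjusted p under 0.05. EFNA1, the usual ligand of EPHA2, supplied 83.2% of the ephrin-A sum in vehicle and was at 129 ± 36.3 FPKM in vehicle and 106 ± 27.3 in EZHi. Its libraries were listed at 11.54, 11.10, 12.10 and 11.82 in vehicle and 11.12, 11.01, 11.80 and 11.56 in EZHi. The groups overlapped widely, yet each EZHi library was below the vehicle library of the same number. The log2 change of EFNA1 was -0.27, with a limma adjusted p of 0.514 without the block and 0.00720 with it. EFNA2 had a change of -0.27 and no overlap between groups, and was likewise called lower with the block (limma adjusted p = 0.0569 without it and 0.00453 with it). EFNA3 and EFNA4 had changes of 0.07 and 0.08.

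**Figure D2:**
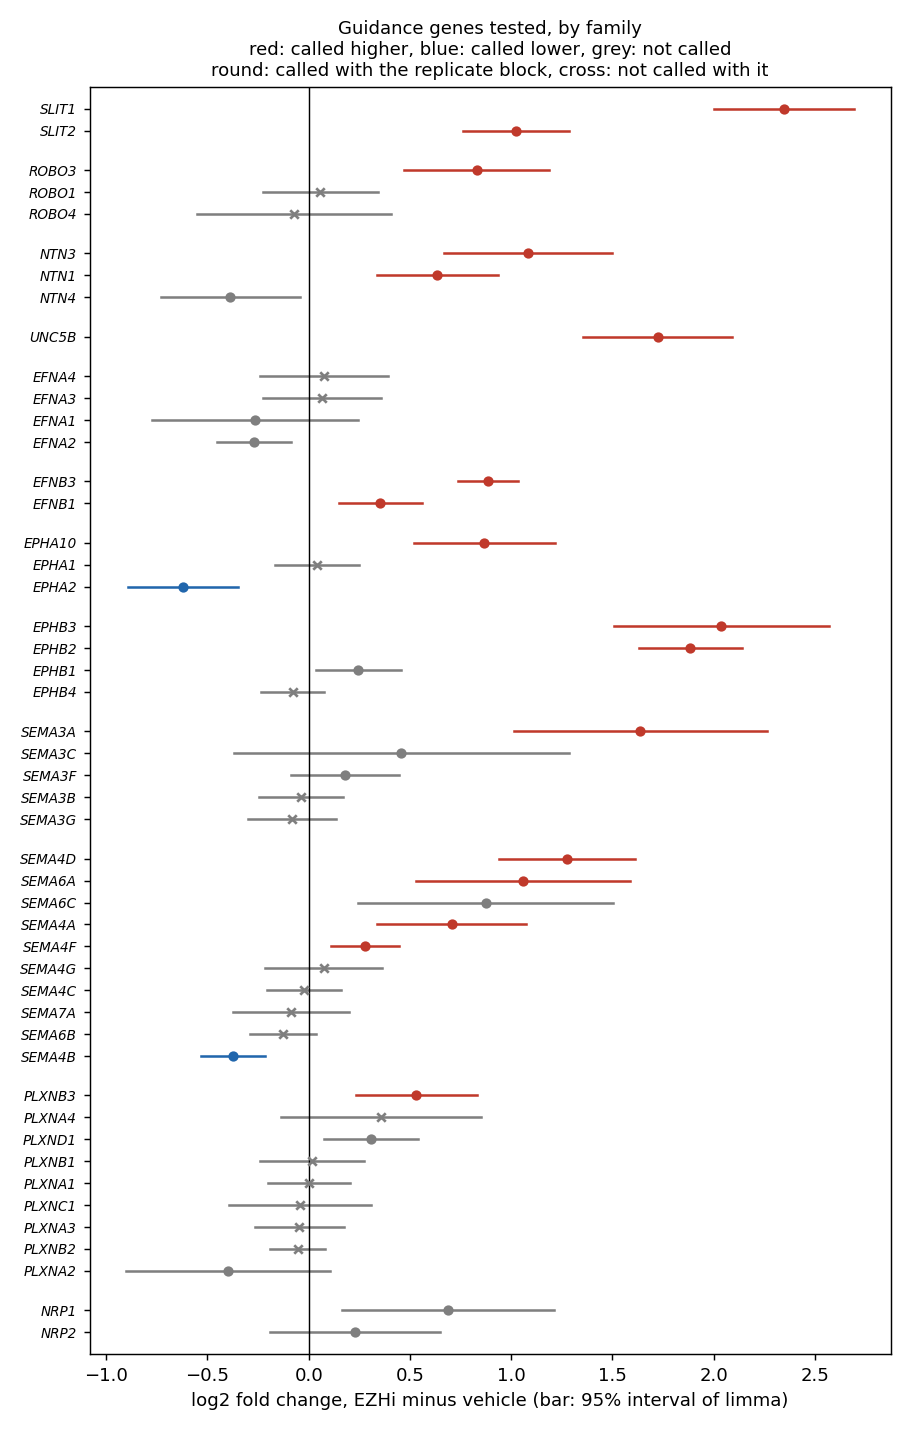
Log2 fold change (EZHi minus vehicle) of the 48 guidance genes tested, by family, with the 95% interval of limma as a bar. Red and blue mark genes called higher and lower, and round points mark those called with the replicate block. SLIT1 at 2.35 is the highest and EPHA2 at -0.62 the lowest, and most plexins lie near 0.

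Class 3 semaphorins are secreted and act through neuropilins and A-type plexins. SEMA3A (chr7:83955777-84492724, minus strand), which collapses axon growth cones through NRP1, was listed at 4.49, 4.32, 5.67 and 5.25 in vehicle and 6.27, 6.58, 6.60 and 6.83 in EZHi. The vehicle libraries were spread over more than 1 unit and the EZHi libraries were closer together, with no overlap. SEMA3A rose by 1.64 ± 0.28 (limma adjusted p = 0.00385), from 1.28 ± 0.561 to 3.75 ± 0.592 FPKM. SEMA3B, which is often described as a tumour suppressor, held 80.0% of the class 3 sum and was at 191 ± 16.8 FPKM in vehicle and 186 ± 19.2 in EZHi, the highest level of any guidance gene in both groups. Its change of -0.04 (95% interval -0.24 to 0.17) was not called. SEMA3C (0.46) and SEMA3F (0.18) were called higher with the block (limma adjusted p = 0.0156 and 0.0411, against 0.488 and 0.382 without it). SEMA3G had a change of -0.08.

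Classes 4 to 7 are membrane-bound. SEMA4D (chr9:89360787-89498130, minus strand), a ligand of PLXNB1 known from lymphocytes and bone, was listed at 5.15, 4.98, 4.54 and 5.24 in vehicle and 6.19, 6.29, 6.21 and 6.33 in EZHi. The EZHi values were almost equal and all above the vehicle values. SEMA4D rose by 1.28 ± 0.15 (limma adjusted p = 0.000409), from 1.25 ± 0.248 to 2.98 ± 0.14 FPKM. SEMA6A (chr5:116443555-116574823, minus strand), a ligand of PLXNA2 and PLXNA4, was at 7.66, 7.36, 8.54 and 8.21 in vehicle and 9.08, 8.69, 9.25 and 9.00 in EZHi. The groups were close but did not overlap. SEMA6A rose by 1.06 ± 0.24 (limma adjusted p = 0.016), from 10.1 ± 3.67 to 20.2 ± 3.16 FPKM, and was the most expressed of the 9 guidance genes that rose by at least 1. Without vehicle replicate 1 its limma adjusted p was 0.0515. SEMA6A shares exons with the antisense gene SEMA6A-AS1, whose change was 0.52 (limma adjusted p = 0.0684, and 0.0372 with the block). SEMA6A-AS1 was at 1.33 FPKM in vehicle and 1.92 in EZHi. In the union mode of counting, reads over annotated exons of both genes were counted for neither.

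SEMA4A, a semaphorin known from immune cells and the retina, rose by 0.71 ± 0.16 (limma adjusted p = 0.0192), and SEMA4F rose by 0.28 ± 0.07 (limma adjusted p = 0.0357). SEMA4B, on the other hand, was listed at 9.64, 9.58, 9.67 and 9.79 in vehicle and 9.21, 9.40, 9.31 and 9.25 in EZHi. All EZHi libraries were below all vehicle libraries for SEMA4B, which fell by 0.38 on the log2 scale (SE 0.07; limma adjusted p = 0.00663), from 31.8 ± 1.97 to 24.5 ± 1.43 FPKM. SEMA6C had a change of 0.87 with overlapping groups, each EZHi library being 0.79 to 0.96 above the vehicle library of the same number. It was not called without the block (limma adjusted p = 0.0731) and was called with it (limma adjusted p = 2.19e-05). The other genes of these classes that were tested (SEMA4C, SEMA4G, SEMA6B and SEMA7A) had changes between -0.13 and 0.08 and were not called, among them SEMA4G at 88.8 and SEMA6B at 82.9 FPKM in vehicle. SEMA5A and SEMA5B were under the filter.

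Plexins, the signalling receptors of semaphorins, were the most expressed receptor family, with a summed FPKM of 531 ± 15.9 in vehicle and 561 ± 21.8 in EZHi. Of the 9 plexin genes, PLXNB3 alone was called without the block. It was listed at 7.72, 8.03, 7.79 and 8.18 in vehicle and 8.16, 8.50, 8.50 and 8.68 in EZHi. The groups overlapped slightly, as EZHi replicate 1 was below vehicle replicate 4. PLXNB3 rose by 0.53 ± 0.13 (limma adjusted p = 0.0273). It shares exons with SRPK3, a kinase gene that was called higher by a similar amount (0.54, limma adjusted p = 0.0476). SRPK3 was at 0.418 FPKM in vehicle and 0.601 in EZHi, and PLXNB3 was at 9.60 and 13.9.

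The abundant plexins PLXNB2 (161 FPKM in vehicle), PLXNB1 (145) and PLXND1 (140) had changes of -0.05, 0.02 and 0.31. PLXND1, known from vessel patterning, was called higher with the block (limma adjusted p = 0.0873 without it and 0.00437 with it), and PLXNA2 was called lower with it (-0.40, limma adjusted p = 0.301 without it and 0.00234 with it). PLXNB1, the receptor of SEMA4D, was thus high in both groups and not called. The A-type plexins PLXNA1 and PLXNA3 had changes of 0.00 and -0.05, and PLXNC1 of -0.04. PLXNA4, at 0.187 FPKM, had a change of 0.36 in which vehicle replicate 4 stood apart from the other vehicle libraries. Without that library its limma adjusted p was 0.00429 and its change 0.61, whereas with all libraries the p was 0.349.

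The neuropilins, co-receptors for class 3 semaphorins and for VEGF, were both expressed above 10 FPKM. NRP1 was listed at 8.09, 8.83, 7.66 and 8.52 in vehicle and 8.84, 9.28, 8.67 and 9.07 in EZHi. The groups overlapped, yet each EZHi library was 0.45 to 1.01 above the vehicle library of the same number. NRP1 had a change of 0.69 (95% interval 0.16 to 1.21), with a limma adjusted p of 0.0884 without the block and 0.000544 with it. NRP2 had a change of 0.23 (limma adjusted p = 0.499 without the block and 0.0279 with it).

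Calls were spread unevenly over the range of expression. Among the 12 guidance genes tested with a mean estimated FPKM under 1, 9 rose. EFNB3, which passed the filter through the EZHi libraries alone, was 1 of these 9. Of the protein-coding genes at that level, 34.4% were called higher and 0.423% lower. Of the 11 genes between 1 and 10 FPKM, 5 rose (14.5% of protein-coding genes at that level were called higher and 2.27% lower), and of the 25 genes at 10 FPKM and over, 3 rose (2.72%) and 2 fell (9.31%). Both genes that fell were thus in the class in which lower calls were most frequent. The classes use the mean over both groups, for guidance and other genes alike, so a rise can move a gene up a class. EPHA10 (0.759 FPKM in vehicle) and ROBO3 (0.826) were placed at 1 to 10 in this way. Protein-coding genes as a whole were called higher at 11.4% and lower at 5.89%. The Spearman correlation between the vehicle level and the log2 change was -0.71 across the 48 guidance genes and -0.43 across all 20153 genes tested. This is a correlation across genes, which are not independent replicates, and both quantities share the vehicle libraries. In vehicle 33 of the 57 genes, and in EZHi 38, were at 1 FPKM or more, and 25 were at 10 FPKM or more in either group.

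**Figure D3:**
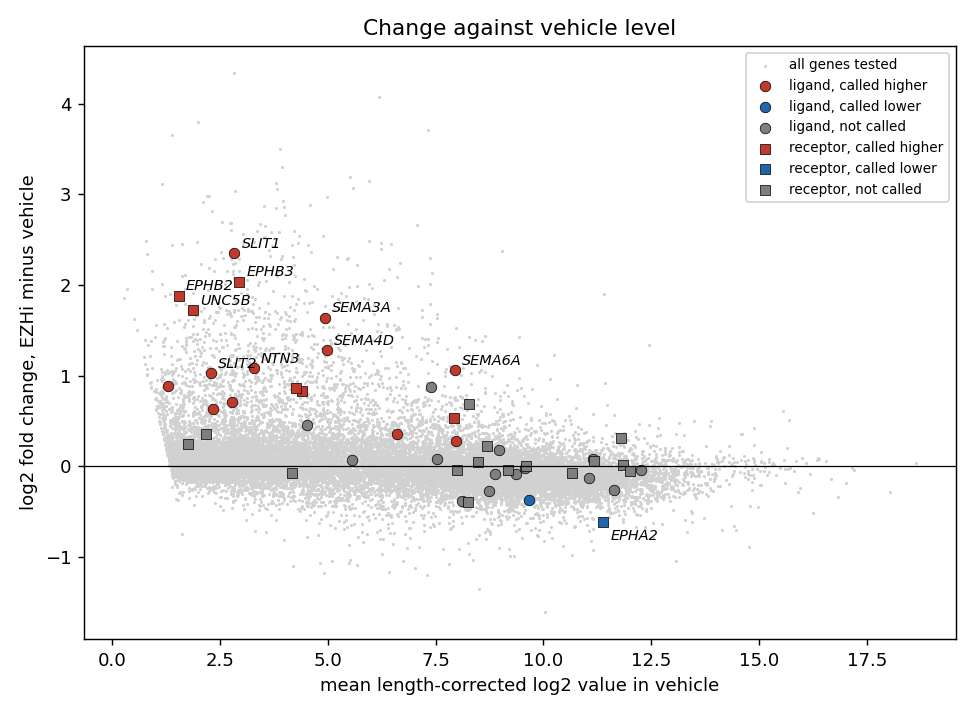
Log2 fold change (EZHi minus vehicle) against the mean length-corrected log2 value in vehicle, with all 20153 genes tested in light grey, guidance ligands as circles and receptors as squares, coloured by call. Genes that rose by at least 1 are named, and with the exception of SEMA6A they lie at vehicle values of 4.98 or less, while EPHA2 fell from 11.38.

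**Figure D4:**
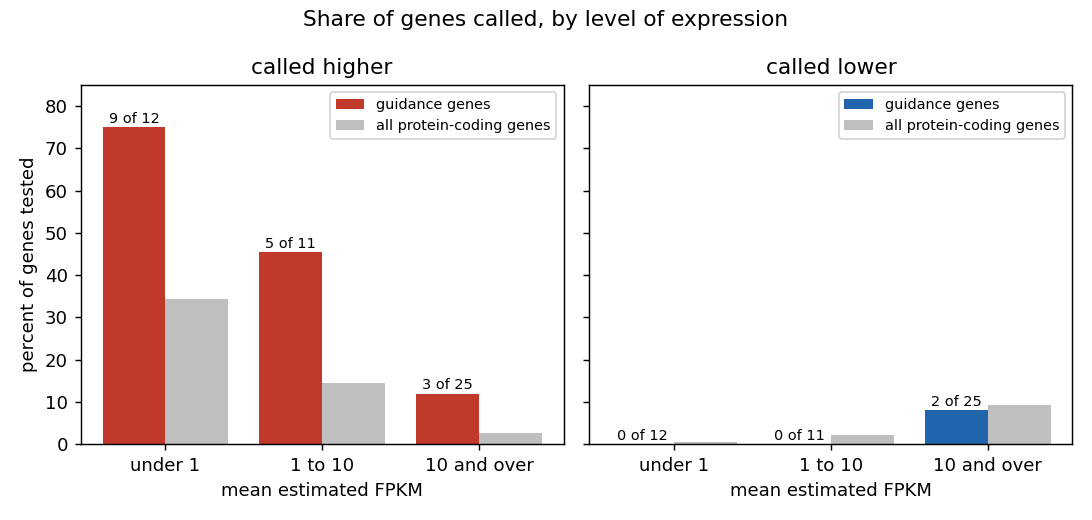
Percent of genes tested that were called higher (left) or lower (right) in 3 classes of mean estimated FPKM, for guidance genes (coloured, with counts) and for all protein-coding genes (grey). Under 1 FPKM, 9 of 12 guidance genes were called higher, against 34.4% of protein-coding genes. The 9 include EFNB3, which passed the filter through the EZHi libraries alone. At 10 and over 2 of 25 were called lower, against 9.31%.

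The 9 guidance genes under the filter were listed at means between -3.36 and 1.48. They were tested in a fit of all genes of the table, where EPHA8 (0.16, limma adjusted p = 0.0154) and SEMA5B (0.36, limma adjusted p = 0.0182) were called higher and UNC5A (0.50, limma adjusted p = 0.0558) was not. EFNB2, EPHA5, EPHB6, NTN5, SEMA5A and SLIT3 were not called there either. EPHA5, the lowest of the 9, varied by less than 0.1 over all libraries. EPHA8 was far under the filter, at 0.00778 FPKM in vehicle and 0.00872 in EZHi, so its call is uncertain. SEMA5B was at 0.0851 FPKM in vehicle and 0.109 in EZHi.

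RefSeq start windows were found for 48 of the 57 genes, including 10 of the 17 that rose, both that fell and 27 of the 29 tested and not called. The ratio of observed to predicted CpG had a median of 0.612 for the genes that rose (range 0.298 to 0.958) and 0.743 for those not called (0.210 to 1.05), compared with 0.824 over 12005 windows of all genes tested, 0.730 over those of all genes called higher, and 0.678 over those of protein-coding genes tested under 1 FPKM. The ranges of the guidance genes overlapped almost fully. SLIT1, SLIT2 and EPHB2 had ratios of 0.876, 0.876 and 0.958, and SEMA4D and SEMA4A had ratios of 0.299 and 0.298. Windows of genes that rose were thus found at both ends. Only the first window listed for each gene was used. Those of SEMA4D and SEMA4A lie inside the gene, so their low ratios may belong to an internal start. Windows of some other genes, such as ROBO3, SEMA4B and PLXNC1, lie inside the gene too, which also limits the medians. A GC box (GGGCGG on either strand) was present in 9 of the 10 windows of genes that rose, in 22 of 27 not called, in 67.4% of the windows of all genes tested and in 44.6% of all 27305 windows. Both windows of genes that fell and 85.4% of all 48 guidance windows also held it, so it did not set apart the genes that rose. The share was 61.2% for all genes called higher and 54.8% for protein-coding genes tested under 1 FPKM. Matches of different motifs were counted separately, also where they could overlap. CCAAT on either strand was found in 4 of 10 windows of genes that rose and 10 of 27 not called. It was in 36.1% of the windows of all genes tested and 35.7% of all windows. TATAAA on either strand was found in 1 of the 48 guidance windows, that of EFNB2, against 6.15% of the windows of all genes tested and 12.0% of all windows. ACCGGT, the core of the motif of grainyhead-like factors, was found in 0 of the 48, against 2.23% of the windows of all genes tested and 1.80% of all windows.

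Other genes of the pathway were taken from lists of textbook members outside the families above. Of 27 related ligands, receptors and adhesion molecules, 20 were in the table and 12 were tested. Of these, 5 rose (8.85% of all genes tested were called higher), with a median log2 change of 0.48 and a lowest change of -0.10. Several of them, such as NTNG2 and NRCAM, were under 1 FPKM. Of protein-coding genes tested, 11.4% were called higher, and of those under 1 FPKM 34.4% were. The 5 were NEO1 (1.31, limma adjusted p = 5.09e-06), a receptor for netrins and repulsive guidance molecules, FLRT3 (1.13, limma adjusted p = 0.00854), a ligand of UNC5 receptors, RGMA (0.91, limma adjusted p = 0.00346), itself a ligand of NEO1, and NRCAM and NTNG2. NEO1 went from 4.62 to 11.4 FPKM, the highest level reached among these 5. With the replicate block 8 of the 12 were called higher (14.9% of all genes tested), among them DSCAML1, L1CAM and GPC1 in addition.

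Downstream of the receptors, all 40 intracellular effectors listed were tested, of which 9 rose and 5 fell, with a median change of -0.06. The shares called higher and lower were 8.85% and 4.27% of all genes tested, and 11.4% and 5.89% of protein-coding genes. The largest rises were those of FYN (2.29, limma adjusted p = 8.06e-06), a kinase that acts below plexins and netrin receptors, PAK1 (1.98, limma adjusted p = 8.06e-06), an effector of the GTPases RAC and CDC42, and DPYSL5 (1.80, limma adjusted p = 0.000225), of the collapsin response family. The effectors that fell were SRGAP1, DPYSL2, VASP, CAP1 and ABLIM1, with changes between -0.54 and -0.31. With the block, 11 were called higher and 11 lower, against 14.9% and 15.1% of all genes tested.

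The hepatocyte list (ALB, AFP and 8 others) was at 10 FPKM or more for 10 of 10 genes in both groups. FGB, a fibrinogen chain, rose (0.92, limma adjusted p = 0.00167). With the replicate block APOA1 (0.42) and APOC3 (0.30) were also called higher (limma adjusted p = 0.00812 and 0.0157) and ALB (-0.28) was called lower (limma adjusted p = 0.0314). Since several guidance genes are also expressed by vessels, markers of other cell types were read beside them. Of 6 endothelial markers, 4 were in the table, and their summed FPKM ranged from 2.26 to 2.73 in vehicle and from 3.43 to 7.22 in EZHi. CDH5 (2.28, limma adjusted p = 0.00411) and VWF (1.45, limma adjusted p = 0.00537) rose, PECAM1 did not pass the test (0.04, limma adjusted p = 0.867), and TEK was listed at -2.52 in vehicle and -2.48 in EZHi. Their part in the rise of the guidance genes was not tested. Summed FPKM ranged from 1.20 to 2.08 in vehicle and 1.48 to 1.91 in EZHi for 4 of 6 immune markers, of which ITGAM was called higher (0.88), from 12.2 to 15.0 and 14.7 to 17.2 for 2 of 6 fibroblast markers, and from 2.84 to 3.75 and 2.64 to 4.11 for 5 of 7 neuronal markers. The fibroblast and neuronal markers tested had changes between -0.06 and 0.37 and did not pass the test. EZH1 and EZH2, whose activity and not expression the compounds block, had changes of -0.07 and -0.06 and were not called.

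Of the 17 genes that rose, 12 were also called in each of the 8 fits that left out 1 library, and both genes that fell were. The calls of SEMA4F, EFNB1, PLXNB3, SEMA4A and SEMA6A depended on the libraries used. Because the regularised log shrinks differences of genes with few reads, the fold changes of the low genes on this scale are understated. The spread between libraries of such genes is shrunk as well, so their limma adjusted p may be too small or too large. No count of reads is at hand to set a limit.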

How the data were processed

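RNA-seq was performed on 4 vehicle and 4 EZHi libraries of HepG2 cells, as paired reads of 150 bp. The authors mapped reads to hg38 and counted them over exons without regard to strand, removed genes with fewer than 10 reads in all, and then took the regularised log (DESeq2) and corrected it for the mean length of each gene's transcripts. The submitters' processing notes name HISAT2 2.2.1, HTSeq 0.9.1 and DESeq2 1.40.2. The file's name says FPKM, but the deposited numbers are log2 values, which ran from -6.81 to 19.01. Read depth is unknown, and no interval from counting error is given.

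Of 25604 rows, 25603 genes remained after 1 repeat was dropped. Coordinates, gene types and transcript lengths came from GENCODE release 44. The estimated FPKM was obtained by dividing 2 to the power of the value by 25.6, the mean over libraries of the normalised reads in units of 1e6 (24.4 to 27.3). Genes with a mean of at least 0.1 were tested with limma (group only, trended prior, two-sided, Benjamini-Hochberg over 20153 genes). Values were used on the log2 scale as deposited. The study calls the replicates independent. Deviations from the group means correlated at 0.216 to 0.634 between libraries of the same number and at -0.582 to 0.199 between others, so the numbers of the titles were taken to pair the libraries and a fit with them as a block was added. The fit was tested on simulated data with independent noise in each library, which does not cover the pairing by replicate number.

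The guidance genes and the lists were chosen with earlier results of these data known. Values in every library are given for called genes with a log2 change of at least 1 and for the largest called change of each family and direction. Uncalled genes are named by level, by the block or as partners, or in order to account for every gene. Genes called in the lists of relatives beyond the first 3, and effectors that fell, were named after their values were seen. Alternatives were the block, filters, pseudocounts, scalings and leaving out each library. Promoter windows were taken from RefSeq (GRCh38.p14), with the first one listed used for each gene. Software was R 4.3.3, limma 3.58.1, Python 3.11.15, numpy 2.4.6, pandas 2.3.3 and matplotlib 3.10.9.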

Additional observations from a re-analysis of the deposited data

Results flagged for a closer look

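In 8 of the 96 groups of 4 libraries formed by the 48 guidance genes tested, 1 library stood apart from the other 3 by a Dixon test at the 95% level, where chance gives about 1 in 20 groups, or 4.8 here. For PLXNA4, a receptor of class 6 semaphorins, vehicle replicate 4 was at 2.96 while the others were at 1.87 to 1.97. For NTN3, EZHi replicate 1 was at 4.00 against 4.48 to 4.51, and for EFNA2 the same library was at 8.31 against 8.50 to 8.52. EPHA10 was at 5.35 in EZHi replicate 4 and at 5.04 to 5.07 in the other EZHi libraries. EPHB2 was at 1.74 in vehicle replicate 2 and at 1.47 to 1.51 in the other vehicle libraries. PLXNA1 was at 9.38 in vehicle replicate 3 against 9.66 to 9.69. PLXNB2 was at 12.06 in EZHi replicate 2 against 11.91 to 11.93, and ROBO1 was at 11.56 in EZHi replicate 3 against 11.08 to 11.17. Without the library that stood apart, the rises of NTN3, EPHA10 and EPHB2 were still called, PLXNA4 became called, and EFNA2, PLXNA1, PLXNB2 and ROBO1 were not called, as with all libraries.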

How the results depend on the processing

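The 19 called guidance genes kept their direction under every alternative run. The 17 guidance genes called higher numbered 8 with a filter at an estimated FPKM of 1, which left fewer genes to test, 26 with the replicate block and centring on genes at 10 FPKM and over, and 13 to 16 when 1 library was left out. The 2 called lower numbered 6 with the replicate block, 6 with the block and quantile normalisation, 6 with the block and that centring, and 2 to 3 without 1 library. Over all genes, the 1784 higher and 860 lower numbered 3003 and 3048 with the replicate block, 2769 and 2824 with the block and quantile normalisation, and 4115 and 1676 with the block and centring. The filter gave 780 higher, centring alone gave 2304 higher and 398 lower, and leaving out 1 library gave 1422 to 1711 higher and 389 to 860 lower, with 495, 454, 554 and 389 lower without vehicle replicates 1 and 4 and EZHi replicates 1 and 4. Quantile normalisation shifted the median change by -0.05 and centring by 0.08. The cause of these differences was not tested. The 2 fits that join the block with a scaling were chosen after seeing the data.

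Beside the guidance, hepatocyte and antisense genes named with the block, pairing by replicate number added 3 relatives and 8 effectors to those called, and changed no other call among the genes of the lists. With 1 library left out, the limma adjusted p of SEMA4F was 0.0512 to 0.0887 in 8 of 8 fits. It was up to 0.0804 for EFNB1 (without vehicle replicate 1, 3 or 4 or EZHi replicate 2, 3 or 4), 0.0849 for PLXNB3 (vehicle 1 or 3, EZHi 2, 3 or 4), 0.0536 for SEMA4A (vehicle 2, EZHi 1 or 3) and 0.0515 for SEMA6A (vehicle 1). EFNA2 (vehicle 1, 0.0442), EPHB1 (EZHi 3, 0.0194), NRP1 (vehicle 2, 0.0294), PLXNA4 (vehicle 4, 0.00429) and SEMA6C (vehicle 3 or EZHi 2, 0.0243 and 0.0453) were called without the library named. Quantile normalisation ended the calls of NTN1 (0.0593), SEMA4A (0.0765) and EFNB1 (0.0968) and added PLXND1 (0.0262), and centring alone added EPHB1 (0.0464) and PLXND1 (0.0308). A pseudocount of 0.5 kept every call and lowered the changes of low genes, to 1.30 for SLIT1, 1.13 for EPHB3, 0.59 for EPHB2, 0.60 for UNC5B and 0.37 for SLIT2.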
